A study of Mus musculus with 6 samples.

Results

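Interferon-stimulated genes are the genes that cells switch on when interferon binds its receptors, and 50 of them, listed by symbol for their known induction or role in the pathway, were followed in mouse hepatocytes given interleukin-1β. All 50 were among the 23282 genes of the deposited count table, and all 50 were among the 11657 genes with enough counts to be tested. They comprised 4 interferon receptor subunits, 8 transcription factors and feedback genes, 3 chemokines, 11 interferon-inducible GTPases, 5 sensors of RNA and other nucleic acids, 14 antiviral effectors and 5 genes of the ISG15 and ADP-ribosylation systems. The hepatocytes came from livers of C57BL6/N mice, digested with collagenase, and were plated for 3 h before treatment. One group received recombinant IL-1β protein for 24 h (IL-1β, 3 samples) and the other received no treatment (control, 3 samples). The labels name no dose, age, sex, transgene or deletion, and RNA was read from its 3′ end by QuantSeq with single-end reads of 75 nt. Although the series text states 2 samples for each group, it names 3, and all 3 entered the comparison. Because nothing states whether the 3 samples of a group came from separate animals or from wells of the same preparation, p-values measure only the spread between these samples, which may be technical.

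Type I interferons bind a receptor made of IFNAR1 and IFNAR2, and interferon-γ binds one made of IFNGR1 and IFNGR2. Both receptors activate Janus kinases and STAT proteins, which reach promoters through the interferon-stimulated response element (ISRE, bound by a complex that holds STAT2 and IRF9) or the interferon-γ-activated site (GAS, bound by STAT dimers). IL-1β signals through another receptor and acts chiefly through the transcription factor NF-κB, whose sites some interferon-stimulated genes, the CXCR3 chemokines among them, also carry.

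Libraries held between 9538741 and 11105408 counts, so 3 counts, taken as the limit of detection, corresponded to between 0.269 and 0.321 normalized counts (CPM, counts brought to a common library total by the TMM method). This limit covers counting error only. Albumin, the defining hepatocyte transcript, was at 13476 to 16574 CPM in every library, while the hepatocyte enzymes Cps1, Tat and Hpd were each under 10 CPM in all of them. After IL-1β 9 of 12 hepatocyte markers were lower (edgeR adjusted p below 0.05), or 75%, against 6.44% of all genes tested. Of 15 macrophage and Kupffer cell markers 12 were tested and none passed the test in edgeR. At an unadjusted edgeR p under 0.05, 3 were higher and none lower, and the median log2 fold change of the 12 was 0.26. The summed level of the 15 was 252 to 282 CPM in control and 257 to 291 CPM after IL-1β. Most of that sum was Cd68, at 172 to 204 CPM in every library, and of the Kupffer cell markers Cd5l was at 16 to 20.5 CPM, Clec4f at 0 to 2.42 CPM and Timd4 at no more than 1 count. Of 10 endothelial markers 9 were tested, with 3 lower (Clec4g, Kdr, Ptprb) and 1 higher (Lyve1), and the sum was 85.8 to 97.4 CPM against 81.8 to 89.2 CPM. For T and NK cell markers it was at most 0.605 CPM in any library, with 7 of 12 listed at 0 throughout. Of 6 neutrophil markers S100a9, Mpo and Elane had no count in any library, Csf3r and Cxcr2 had at most 5 counts with overlap between groups, and S100a8 had none in the controls and 2.03 to 4.74 CPM after IL-1β. The summed level of 7 cholangiocyte markers was 317 to 329 CPM in control and 236 to 240 CPM after IL-1β, nearly all of it from Sox9, which was not called, and Spp1, which fell by 1.2 on the log2 scale (edgeR adjusted p = 4.4e-12), while Krt7, Krt19 and Epcam had between 0 and 6 counts in each library. The part of these cells in the results below was not tested, and in bulk RNA fewer cells of a type cannot be told apart from less RNA per cell.

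Most of the 50 genes lay near their control level after IL-1β. Ifnar2, Ifngr2, Socs1, Cxcl9, Gbp6, Ifit1 and Oasl1 rose, and Cxcl10 and Irf7 fell, with an adjusted p below 0.05 from the quasi-likelihood test of edgeR, adjusted by Benjamini-Hochberg over all 11657 genes (genes past this threshold are termed called). Among all genes tested 6.97% were called higher, 6.44% lower and 13.4% in either direction, against 7, 2 and 9 of the 50, the last of these being 18%. Without control replicate 1 the number higher was 11, with Isg15, Mx1, Bst2 and Zbp1 added. The median log2 fold change was 0.07 over the 50 genes and -0.0018 over all genes, and 32 of the 50 lay above 0. In absolute size the median was 0.13 over the 50 and 0.16 over all genes. For 40 of the 50, or 80%, the whole 95% interval of the log2 fold change lay within a 1.5-fold change (±0.58), compared with 58.5% of all genes tested. Among the 41 genes not called, 37 had such an interval, and the exceptions, Cxcl11, Ifit2, Irf8 and Mx1, each had a mean below 10 CPM in the controls. Intervals are wider at low counts, and only 5 of the 50 genes had a control mean below 10 CPM. The shares of 80% and 58.5% were not matched for level, so their difference is no measure of how stable these genes were. Values of the 2 groups did not overlap for 17 of the 50 genes, 11 higher and 6 lower after IL-1β, whereas this held for 28.2% of all genes. The summed level of the 50 genes ran from 5623 to 5838 CPM in control and from 5954 to 6276 CPM after IL-1β. Over all genes of the count table the sum was also higher, at 1013870 to 1026010 CPM after IL-1β against 963913 to 994099 in control. The higher sum of the 50 is therefore no measure of a rise in these genes. With 3 samples in each group, the smallest two-sided p of an exact permutation test is 0.1, which every gene without overlap reached.

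**Figure D1:**
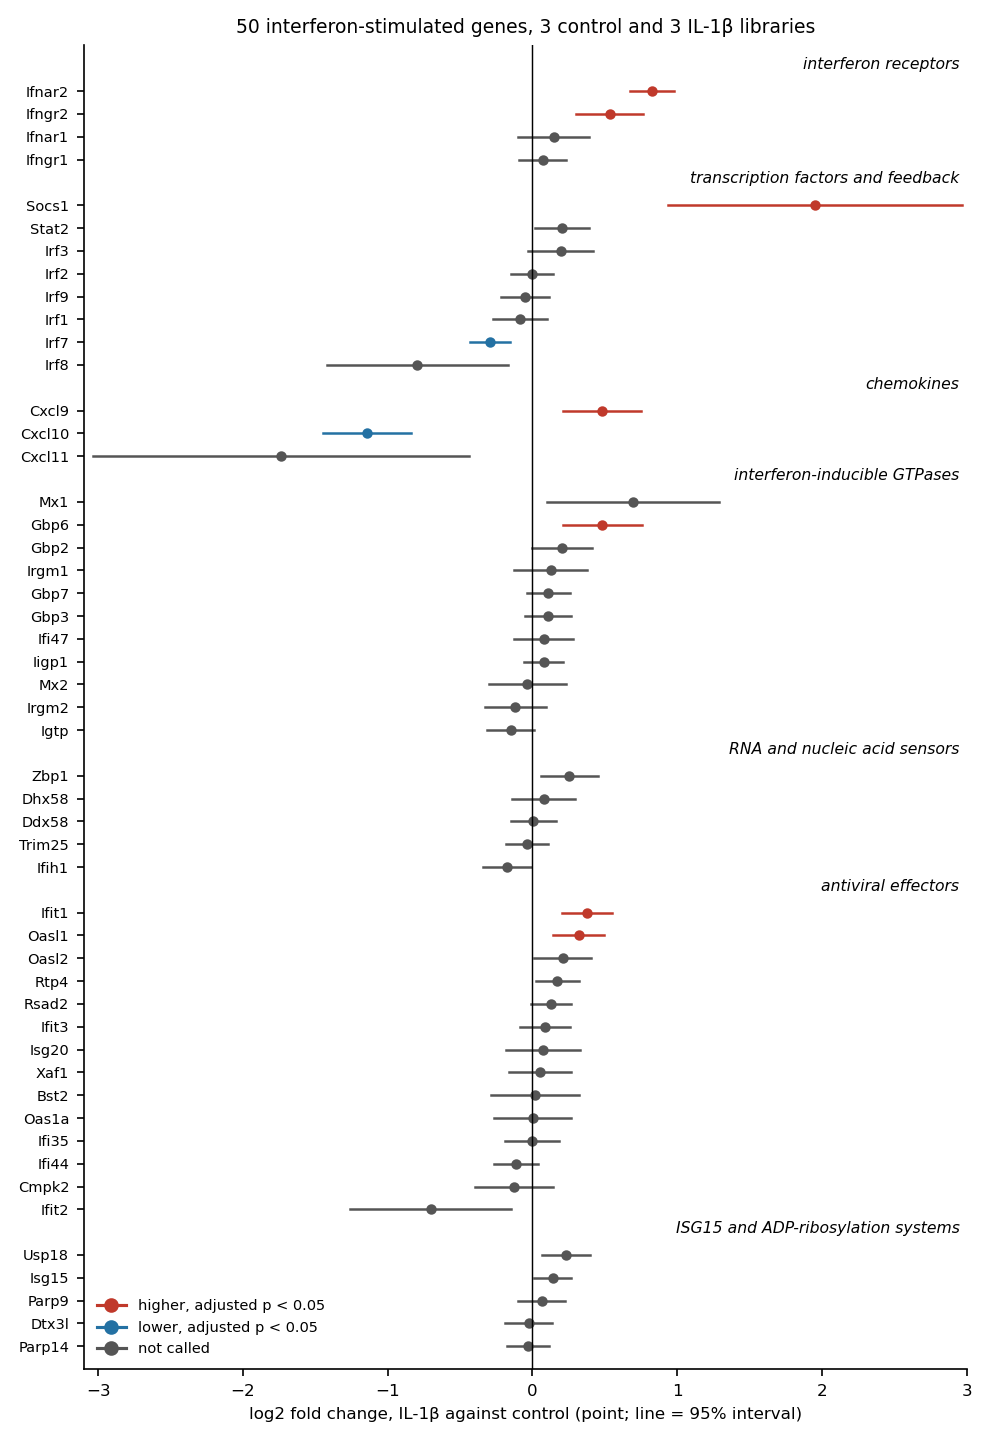
Log2 fold change (x axis, IL-1β against control, 3 libraries each) of the 50 interferon-stimulated genes, grouped by role, with points for the estimate and lines for the 95% interval from edgeR. Most points lie close to 0 with short lines, while Socs1 and Ifnar2 stand to the right and Cxcl10 to the left, and the longest lines belong to the low genes Cxcl11 and Socs1.

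The ligands of these receptors had few counts or none. Of 21 interferon genes in the table, 18, including Ifnb1, Ifng and every listed Ifna gene, had no count in any library, which allows at most 0.321 CPM in the shallowest. Ifnk had 5, 6 and 7 counts in the control libraries and 3, 6 and 11 after IL-1β, and its groups overlapped. Ifnz had 7 counts in a single control and 1 in a single IL-1β library, and Ifne had 1 count in all. None had enough counts for a test.

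Of the 4 receptor subunits Ifnar2 and Ifngr2 rose, and Ifnar1 and Ifngr1 were not called. The share called was 50% in this short list, against 13.4% of all genes tested. Ifnar2, the subunit that binds type I interferon with high affinity (chr16:91372783-91405587, plus strand, GRCm38), was at 117, 127 and 134 CPM in the control libraries and at 221, 234 and 215 CPM after IL-1β. All IL-1β values were above all control values, and the mean went from 126 ± 8.67 to 224 ± 9.66 CPM (SD, n = 3). This was a 1.77-fold rise, with a log2 fold change of 0.83 (standard error, SE, 0.073, edgeR adjusted p = 3.8e-09). Ifngr2, the signalling subunit of the interferon-γ receptor (chr16:91547094-91564007, plus strand), was at 32.7, 43.7 and 46.9 CPM in control and at 57.2, 62.3 and 58.6 CPM after IL-1β. Again the groups did not overlap, and the log2 fold change was 0.53 (SE 0.11, edgeR adjusted p = 0.0014).

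Differences in their partner subunits did not pass the test. Ifnar1 (chr16:91485215-91510522, plus strand), which pairs with IFNAR2, was at 26.7, 26.3 and 31 CPM in control and at 29.9, 29.2 and 33.7 CPM after IL-1β, and the groups overlapped. Its log2 fold change was 0.15 with a 95% interval from -0.10 to 0.39 (adjusted p = 0.519 from edgeR). Ifngr1 (chr10:19591958-19610225, plus strand), the ligand-binding subunit of the interferon-γ receptor, was at 95, 86.8 and 87.4 CPM in control and at 96.5, 90.5 and 95.7 CPM after IL-1β. For Ifngr1 the log2 fold change was 0.07 with an interval from -0.09 to 0.23 (adjusted p = 0.667 from edgeR), and the groups overlapped. The ratio of Ifnar2 counts to Ifnar1 counts within a library was 4.39, 4.83 and 4.33 in control and 7.40, 8.02 and 6.38 after IL-1β. No IL-1β library reached down to a control (two-sided exact permutation p = 0.1). For Ifngr2 to Ifngr1 the ratio was 0.344, 0.503 and 0.536 in control and 0.592, 0.689 and 0.612 after IL-1β, also without overlap (exact p = 0.1). Both separations follow largely from the values of Ifnar2 and Ifngr2 alone and are no further test.

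Ifnar2, Il10rb, Ifnar1 and Ifngr2 lie next to each other on chromosome 16 in that order. Il10rb, a subunit of the interferon-λ and IL-10 receptors, was at 11.3, 13.2 and 15.4 CPM in control and at 19.8, 16.5 and 18.5 CPM after IL-1β. Although these values did not overlap, the log2 fold change of 0.46 (SE 0.16) missed the threshold, with an adjusted p of 0.057 from edgeR. Of the 75-nt windows in the last 500 nt of Ifnar2 transcripts, 17.1% also occur in the overlapping gene model Gm21970, and how the authors counted such reads is not stated.

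**Figure D2:**
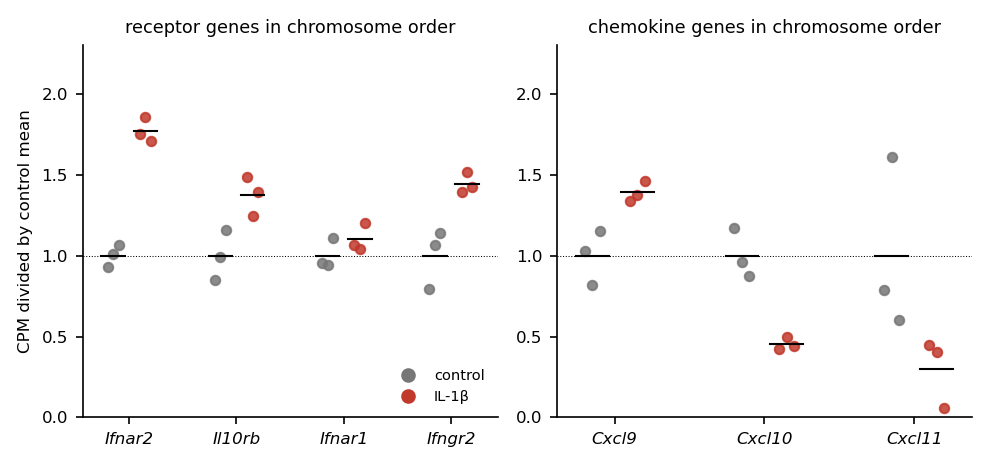
CPM divided by the control mean (y axis, linear) for 4 neighbouring receptor genes on chromosome 16 and 3 neighbouring chemokine genes on chromosome 5, in chromosome order. Each point is a library and each short bar a group mean (n = 3). Ifnar2 and Ifngr2 rise clear of their controls with Ifnar1 between them close to 1, and Cxcl9 lies above its controls where Cxcl10 and Cxcl11 lie below theirs.

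Of the 8 transcription factors and feedback genes, 1 rose, 1 fell and 6 were not called, or 25% called against 13.4% of all genes tested. Socs1, a feedback inhibitor of the Janus kinases (chr16:10783809-10785536, minus strand), gave 23, 11 and 2 counts in the control libraries and 36, 67 and 31 counts after IL-1β. In CPM these were 2.16, 0.985 and 0.202 in control, the last under the limit of detection, and 3.85, 6.44 and 2.88 after IL-1β. Every IL-1β value was above every control value. The log2 fold change of 1.95 was the largest increase among the 50 genes, and also the least precise of those called (SE 0.49, edgeR adjusted p = 0.0074). Without IL-1β replicate 2 it was 1.57 and no longer passed (adjusted p = 0.111 from edgeR).

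Irf7, the factor that drives transcription of most interferon-α genes (chr7:141263183-141266424, minus strand), was at 266, 277 and 276 CPM in control. After IL-1β it was at 212, 237 and 220.1 CPM, each below all controls. Irf7 thus fell by 0.29 on the log2 scale (SE 0.067, edgeR adjusted p = 0.0031). Irf8, a factor of myeloid cells (chr8:120736358-120756692, plus strand), was at 5.73, 5.46 and 5.44 CPM in control and at 2.46, 2.69 and 4.37 CPM after IL-1β. The groups did not overlap, but the log2 fold change of -0.80 (SE 0.30) missed the threshold (adjusted p = 0.0905 from edgeR). Leaving out IL-1β replicate 3 gave -1.10 with an adjusted p of 0.0442 from edgeR.

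The other regulators were not called. Irf1, an activator that is itself strongly interferon-induced (chr11:53770014-53778374, plus strand), was at 63.9, 68.5 and 67.7 CPM in control and at 67.3, 64.7 and 56.6 CPM after IL-1β. With a log2 fold change of -0.09 (SE 0.091, 95% interval -0.27 to 0.10, adjusted p = 0.648 from edgeR), its groups overlapped. Irf2, which competes with IRF1 for its sites (chr8:46739745-46847458, plus strand), was at 129, 132 and 135 CPM in control and at 132 CPM in each IL-1β library. Its log2 fold change was -0.0016 (SE 0.071, edgeR adjusted p = 0.994), and the interval ran from -0.15 to 0.14.

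STAT2 and IRF9 belong to the complex that binds the ISRE. Stat2 (chr10:128270576-128292849, plus strand) was at 76.9, 95.9 and 84.4 CPM in control and at 90.0, 101 and 106 CPM after IL-1β, with overlap. It had a log2 fold change of 0.20 (SE 0.090, edgeR adjusted p = 0.156), which became 0.30 with an adjusted p of 0.0481 when control replicate 2 was left out. Irf9 (chr14:55603985-55610030, plus strand) was at 117, 140.2 and 139 CPM in control and at 123, 134 and 124 CPM after IL-1β. Here the log2 fold change was -0.05 (SE 0.080, edgeR adjusted p = 0.764), with overlap. Irf3, a factor held inactive until a sensor pathway phosphorylates it (chr7:44997648-45002848, plus strand), was at 31.3, 36.5 and 39.9 CPM in control and at 40.1, 40.7 and 42.3 CPM after IL-1β. Values did not overlap, with control replicate 3 just below the lowest IL-1β library, and the log2 fold change was 0.19 (SE 0.11, edgeR adjusted p = 0.301).

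Cxcl9, Cxcl10 and Cxcl11 belong to a chemokine family that attracts T cells through the receptor CXCR3. They lie side by side on the minus strand of chromosome 5, yet Cxcl9 rose and Cxcl10 fell. Cxcl10 (chr5:92346639-92348889) was at 31.8, 26 and 23.7 CPM in control and at 11.4, 13.4 and 12.0 CPM after IL-1β. Each IL-1β value was below every control, and Cxcl10 fell by 1.14 on the log2 scale (SE 0.15, edgeR adjusted p = 2.6e-06), from a mean of 27.2 ± 4.15 to 12.3 ± 1.04 CPM (SD, n = 3). It had the largest decrease among the genes called.

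Cxcl9 (chr5:92321331-92328079) was at 23.3, 18.5 and 26.2 CPM in control and at 30.4, 31.2 and 33.1 CPM after IL-1β, again without overlap but in the other direction. Its log2 fold change was 0.48 (SE 0.13, edgeR adjusted p = 0.0126). The call was lost without control replicate 2 (log2 fold change 0.36, adjusted p = 0.0955) or without IL-1β replicate 3 (0.45, adjusted p = 0.0727, both from edgeR). Cxcl11 (chr5:92359545-92363277) gave 14, 30 and 10 counts in control and 7, 7 and 1 after IL-1β, or 1.32, 2.69 and 1.01 CPM against 0.748, 0.672 and 0.093 CPM. Its values lay on the same side as those of Cxcl10 and did not overlap, but the log2 fold change of -1.74 had an SE of 0.63 and missed the threshold (adjusted p = 0.0721 from edgeR). The ratio of Cxcl9 counts to Cxcl10 counts in the same library was 0.734, 0.711 and 1.11 in control and 2.65, 2.32 and 2.76 after IL-1β. All IL-1β libraries exceeded all controls (two-sided exact permutation p = 0.1), and their mean ratio was 2.58 ± 0.229 against 0.85 ± 0.222 (SD, n = 3). Because Cxcl9 lay above and Cxcl10 below all controls, this separation follows from the values of the single genes and is no further test.

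The 250 bases before the annotated start of Socs1, Cxcl10 and Cxcl9 are printed because, among the called genes, Socs1 had the largest increase and Cxcl10 the largest decrease, and Cxcl9 is a close paralog of Cxcl10 that moved the other way. Sequences are from RefSeq (GRCm38.p6), 5′ to 3′ on the strand of the gene, with every match to an ISRE (GAAANNGAA), a GAS (TTCNNNGAA) or a κB site (GGGANTTNC), on either strand, in capitals. They span chr16:10785537-10785786, minus strand for Socs1, chr5:92348890-92349139, minus strand for Cxcl10 and chr5:92328080-92328329, minus strand for Cxcl9.
Socs1: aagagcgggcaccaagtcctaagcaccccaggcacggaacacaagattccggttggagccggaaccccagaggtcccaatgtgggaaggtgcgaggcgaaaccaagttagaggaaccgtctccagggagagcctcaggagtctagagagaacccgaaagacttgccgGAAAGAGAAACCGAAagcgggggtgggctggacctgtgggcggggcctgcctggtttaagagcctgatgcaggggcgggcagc
Cxcl10: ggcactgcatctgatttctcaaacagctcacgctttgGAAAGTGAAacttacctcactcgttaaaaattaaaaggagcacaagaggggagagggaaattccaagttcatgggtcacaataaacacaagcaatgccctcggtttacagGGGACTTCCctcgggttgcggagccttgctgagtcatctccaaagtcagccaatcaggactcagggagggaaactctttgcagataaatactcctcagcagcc
Cxcl9: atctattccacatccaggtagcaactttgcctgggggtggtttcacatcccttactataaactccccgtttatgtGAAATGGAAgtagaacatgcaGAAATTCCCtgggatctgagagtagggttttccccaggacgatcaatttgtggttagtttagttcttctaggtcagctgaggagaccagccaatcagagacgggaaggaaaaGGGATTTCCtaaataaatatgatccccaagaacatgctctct

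Capitals in Socs1 mark a pair of ISRE matches that overlap, beginning 83 and 77 bases before the start. In Cxcl10 they mark an ISRE match 213 bases and a κB match 103 bases before the start, and in Cxcl9 an ISRE match at 175 bases and κB matches at 154 and 42 bases. Cxcl9 and Cxcl10, which moved in opposite directions, thus both held an ISRE and a κB match in this window.

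**Figure D3:**
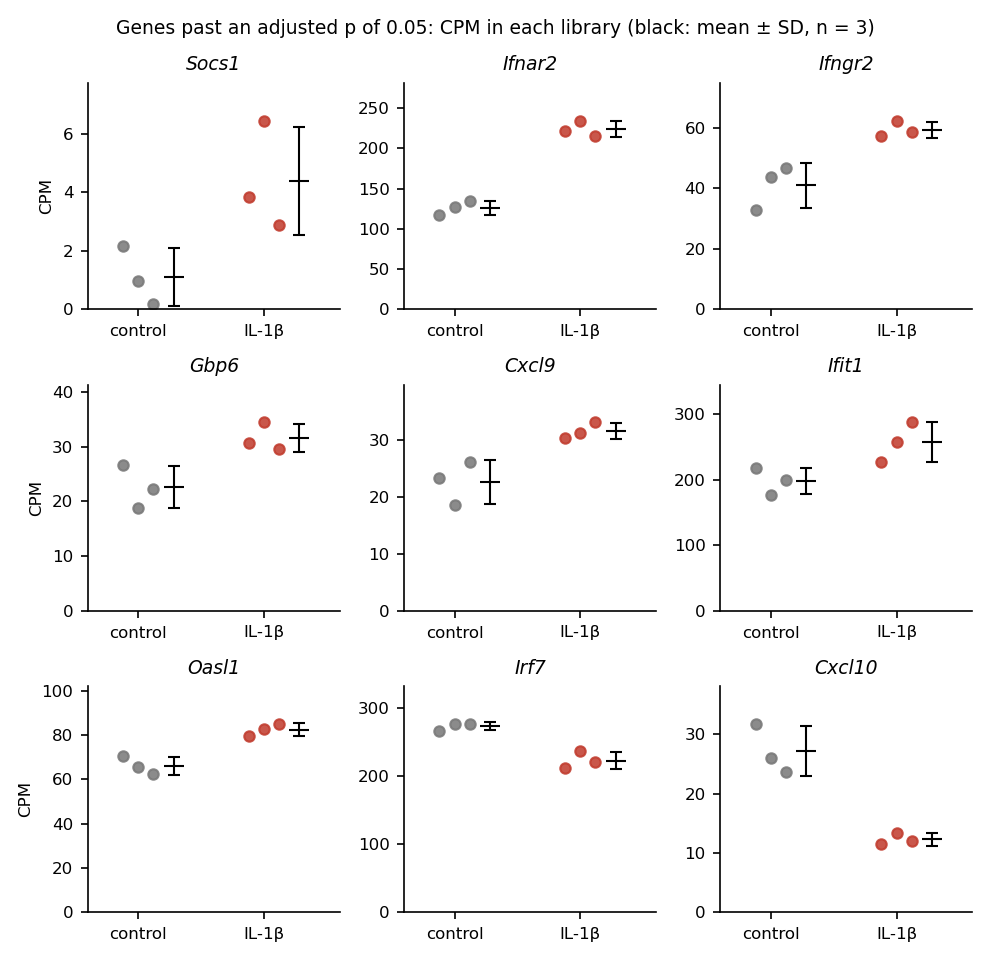
CPM (y axes, linear, from 0) of the 9 called genes in each of 3 control libraries (grey) and 3 IL-1β libraries (red), with the mean ± SD in black. In all 9 panels the groups are apart, widely for Ifnar2 and Cxcl10, and narrowly for Ifit1, where the lowest IL-1β library at 227 CPM lies close to the highest control at 217 CPM.

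Among the 11 interferon-inducible GTPases, which act on the membranes of pathogen-containing vacuoles or on viral capsids, only Gbp6 was called. That is 9.09%, against 13.4% of all genes tested. Gbp6 (chr5:105270702-105293699, minus strand) was at 26.7, 18.9 and 22.4 CPM in control and at 30.7, 34.5 and 29.7 CPM after IL-1β, without overlap. The log2 fold change was 0.48 (SE 0.13, edgeR adjusted p = 0.0137). Without control replicate 2 it was 0.37 (adjusted p = 0.0994), and without IL-1β replicate 2 it was 0.42 (adjusted p = 0.0961), so the call rested on these libraries. Of the 75-nt windows at the 3′ end of Gbp6, 70.2% also occur in Gbp9, Gbp10 or Gm43302, so its counts are uncertain. Gbp9 and Gbp10 were themselves called higher, both with a log2 fold change of 0.67 and with adjusted p of 0.0237 and 0.0067 from edgeR. All 3′ windows of Gbp10 also occur in Gbp6 or Gm43302, so its call is not separate from that of Gbp6, whereas 1.1% of those of Gbp9 occur in another gene.

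The other guanylate-binding proteins Gbp2, Gbp3 and Gbp7, the immunity-related GTPases Irgm1, Irgm2, Igtp, Iigp1 and Ifi47, and Mx2 had log2 fold changes between -0.15 (Igtp) and 0.20 (Gbp2), and their groups overlapped. Mx1 was at 8.83, 5.10 and 3.22 CPM in control and at 12.6, 7.78 and 7.62 CPM after IL-1β. The highest control exceeded the lower IL-1β libraries, and the log2 fold change of 0.70 (SE 0.29) was not called (adjusted p = 0.128 from edgeR). Without control replicate 1 it was 1.15 with an adjusted p of 0.0029, and with no filter on low counts it was 0.69 with an adjusted p of 0.0322 from edgeR.

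None of the 5 sensors among the 50 genes was called, against 13.4% of all genes tested. Ifih1 (MDA5), Ddx58 (RIG-I) and Dhx58 (LGP2) detect double-stranded or 5′-triphosphate RNA, Trim25 attaches ubiquitin in the RIG-I pathway, and Zbp1 binds nucleic acids of the Z form. Ddx58 was at 105, 108 and 116 CPM in control and at 110.3, 109 and 110.4 CPM after IL-1β, with a log2 fold change of 0.0047 (SE 0.075, edgeR adjusted p = 0.984). Ifih1 had the lowest fold change of the 5, with levels of 94.0, 91.1 and 86.6 CPM in control and 77.7, 83.3 and 79.1 CPM after IL-1β. Although its groups did not overlap, a log2 fold change of -0.18 (SE 0.080) was not called (adjusted p = 0.169 from edgeR). The fold change of Zbp1 was the highest of the 5, with levels of 134, 101 and 104 CPM in control and 136, 146 and 122 CPM after IL-1β. Its groups overlapped through control replicate 1, and the log2 fold change of 0.26 (SE 0.095) was not called (adjusted p = 0.0807 from edgeR). Leaving out that library gave 0.40 with an adjusted p of 0.00039, and no filter on low counts gave an adjusted p of 0.0182 from edgeR.

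Of the 14 antiviral effectors Ifit1 and Oasl1 rose and 12 were not called, or 14.3% called against 13.4% of all genes tested. Ifit1, which binds the 5′ end of foreign RNA and blocks its translation (chr19:34640889-34650009, plus strand), was at 217, 177 and 199 CPM in control and at 227, 257 and 287 CPM after IL-1β. The groups did not overlap, and the log2 fold change was 0.38 (SE 0.084, edgeR adjusted p = 0.0023). Oasl1, a member of the oligoadenylate synthetase family that restrains translation of Irf7 mRNA (chr5:114923240-114937911, plus strand), was at 70.4, 65.3 and 62.5 CPM in control. After IL-1β it was at 79.3, 82.9 and 85.1 CPM, above all controls, with a log2 fold change of 0.32 (SE 0.085, edgeR adjusted p = 0.011). The Oasl1 call was lost without control replicate 3 (0.28, adjusted p = 0.0624) and without IL-1β replicate 3 (0.30, adjusted p = 0.0569).

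The paralogs Ifit2 and Ifit3, next to Ifit1 on chromosome 19, were not called. Ifit2, which also inhibits translation (chr19:34550694-34576534, plus strand), was at 6.58, 7.16 and 6.95 CPM in control and at 5.67, 3.75 and 3.35 CPM after IL-1β. Its groups did not overlap and lay in the direction opposite to Ifit1, but the log2 fold change of -0.70 (SE 0.27) was not called (adjusted p = 0.0905 from edgeR). Without IL-1β replicate 1 it was -0.95 with an adjusted p of 0.0444. Ifit3, a cofactor of IFIT1 (chr19:34583529-34588982, plus strand), was at 154, 131 and 137 CPM in control and at 132, 160.0 and 155 CPM after IL-1β, with overlap and a log2 fold change of 0.09 (SE 0.082, edgeR adjusted p = 0.598). The ratio of Ifit1 counts to Ifit3 counts was 1.41, 1.35 and 1.46 in control and 1.71, 1.61 and 1.86 after IL-1β. For Ifit1 to Ifit2 it was 33.0, 24.7 and 28.7 in control and 40.0, 68.7 and 85.8 after IL-1β. Neither ratio overlapped between groups (two-sided exact permutation p = 0.1 for both). For Ifit1 to Ifit2 this follows from the single genes, which lay apart in opposite directions, and is no further test.

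For Ifit1 and Ifit2, whose fold changes had opposite signs, the 250 bases before the start are printed in the same manner, from chr19:34640639-34640888, plus strand for Ifit1 and chr19:34550444-34550693, plus strand for the first of the Ifit2 starts in RefSeq.
Ifit1: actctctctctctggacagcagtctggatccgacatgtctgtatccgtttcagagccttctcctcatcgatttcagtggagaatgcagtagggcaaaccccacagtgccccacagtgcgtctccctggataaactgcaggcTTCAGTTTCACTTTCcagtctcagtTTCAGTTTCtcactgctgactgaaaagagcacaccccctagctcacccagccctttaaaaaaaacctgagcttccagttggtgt
Ifit2: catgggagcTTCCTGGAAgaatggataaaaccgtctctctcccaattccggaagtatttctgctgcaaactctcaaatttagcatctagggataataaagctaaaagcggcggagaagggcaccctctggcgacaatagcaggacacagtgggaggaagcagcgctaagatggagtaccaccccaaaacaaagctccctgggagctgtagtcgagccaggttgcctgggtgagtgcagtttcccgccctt

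Ifit1 held 3 ISRE matches, beginning 109, 103 and 84 bases before the start, of which the first and second overlap. The Ifit2 window held no ISRE match and a single GAS match 241 bases before the start.

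None of the other effectors was called. Log2 fold changes of Oasl2, Rtp4, Rsad2 (viperin), Isg20, Xaf1, Bst2 (tetherin), Oas1a, Ifi35, Ifi44 and Cmpk2 lay between -0.13 (Cmpk2) and 0.21 (Oasl2). Rsad2, which makes a chain-terminating nucleotide, was at 506, 526 and 543 CPM in control and at 531, 628 and 559.5 CPM after IL-1β, with overlap. Bst2, which holds budding virions at the cell surface, had the widest spread among the abundant effectors, at 327, 230.0 and 169 CPM in control and 289.6, 196 and 249.9 CPM after IL-1β. Its log2 fold change was 0.02 with a 95% interval from -0.28 to 0.32, and without control replicate 1 it was 0.30 with an adjusted p of 0.0389 from edgeR. For Oas1a, 46.0% of 3′ windows also occur in Oas1g, and its counts are uncertain.

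ISG15 is a ubiquitin-like protein that is attached to other proteins, and USP18 removes it and also damps signalling at IFNAR2. Isg15 was at 567, 539 and 501 CPM in control and at 597, 585 and 589 CPM after IL-1β. Every IL-1β value was above every control, but the log2 fold change of 0.14 (SE 0.063) was not called (adjusted p = 0.167 from edgeR). Without control replicate 1 it was 0.18 with an adjusted p of 0.0437. Usp18 was at 96.2, 103 and 92.5 CPM in control and at 104, 117 and 122 CPM after IL-1β, just without overlap. The log2 fold change of 0.23 (SE 0.081) had the smallest adjusted p among the 41 genes not called (0.0637 from edgeR), and without IL-1β replicate 1 it was 0.30 with an adjusted p of 0.0333. Parp9 and Dtx3l, which form an ADP-ribosylating ubiquitin ligase, and Parp14 had log2 fold changes of 0.07, -0.03 and -0.03, and their groups overlapped.

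The receptor-bound kinases Jak1, Jak2 and Tyk2 were not called. The log2 fold change was 0.07 for Jak1, 0.27 for Jak2 and -0.06 for Tyk2, with adjusted p of 0.526, 0.306 and 0.829 from edgeR. Of 28 other signalling genes listed, 26 were tested, 6 were higher and 2 lower, or 30.8% called against 13.4% of all genes, and the median log2 fold change was -0.02. Socs3, which inhibits signalling by STAT3-activating receptors, rose from 17, 18.3 and 21.3 CPM to 57.3, 54.7 and 52.4 CPM, a log2 fold change of 1.54 (adjusted p = 1.3e-10 from edgeR). Ptpn2, a phosphatase that acts on Janus kinases, rose by 0.92 on the log2 scale, Ikbke, a kinase of IRF3, by 0.71 and Stat3 by 0.37 (adjusted p = 4.7e-06, 2.4e-06 and 0.00047). Mb21d1, the gene of the DNA sensor cGAS, gave 12, 26 and 13 counts in control and 41, 45 and 46 after IL-1β, without overlap, and rose by 1.43 on the log2 scale (SE 0.37, edgeR adjusted p = 0.0094). The corepressor Irf2bp2 fell by 0.41 on the log2 scale (edgeR adjusted p = 0.0213).

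A further 78 interferon-induced genes, none of them among the 50, were also counted. Of 76 that the table lists, 68 were tested, 7 were higher and 1 lower, or 11.8% called against 13.4% of all genes, and their median log2 fold change was 0.09. With libraries scaled by total counts alone, 6 were higher and 3 lower. Ifitm2, which keeps virions from fusing with cell membranes, rose by 0.70 (adjusted p = 3.4e-07 from edgeR), and Slfn2, a regulator of T cell quiescence, by 1.19 (adjusted p = 2.3e-05 from edgeR). Of the 3′ windows of Ifitm2, 32.6% also occur in other gene models such as Gm11951, so its counts are uncertain. The single decrease was in the GTPase gene Tgtp2, which fell by 0.52 (adjusted p = 0.0205 from edgeR), and 100% of its 3′ windows also occur in Tgtp1. Of 18 genes of MHC class I presentation, a process that interferon-γ induces, 6 were higher and none lower in edgeR (9 higher and none lower at an unadjusted p under 0.05), with a median of 0.14. In the NF-κB target list, by comparison, 19 of 22 rose and none fell (22 and none at an unadjusted p under 0.05), with a median log2 fold change of 1.40 and a range from 0.19 to 6.95. The share called was 33.3% for MHC class I presentation and 86.4% for NF-κB targets, against 13.4% of all genes. All these lists were chosen with earlier results of these data known, so the contrast between them is not an independent comparison.

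**Figure D4:**
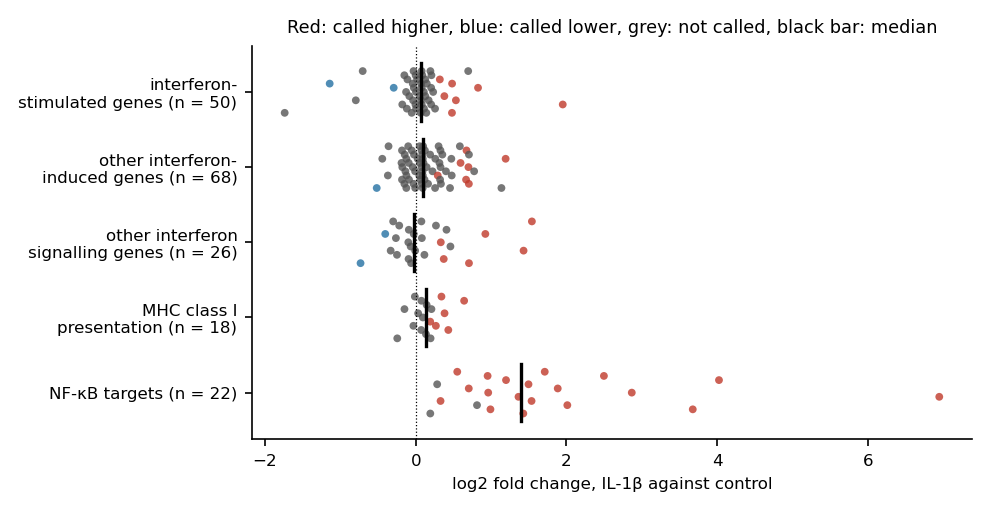
Log2 fold change (x axis, IL-1β against control) of each tested gene in 5 lists, with a point per gene, red for called higher, blue for called lower, grey for not called, and a black bar at the median. The 50 interferon-stimulated genes and the 68 other interferon-induced genes cluster around medians of 0.07 and 0.09, while the 22 NF-κB targets spread to the right around a median of 1.40. The lists were chosen with earlier results of these data known.

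Promoter sequences were at hand in RefSeq for 39 of the 50 genes, from 250 bases before to 50 after the start. An ISRE match was present in 21 of the 39 (53.8%), compared with 9.76% of all 27025 genes with such a window. A GAS match, whose letters read the same on both strands, was present in 13 (33.3%, against 9.55%) and a κB match in 6 (15.4%, against 4.94%). Those with a κB match were Cxcl9, Cxcl10, Ifngr2, Igtp, Irf2 and Irgm2, of which Cxcl9 and Ifngr2 rose, Cxcl10 fell and the others were not called. Of the 8 called genes with a window, 4 held an ISRE match (Cxcl9, Cxcl10, Ifit1 and Socs1), Ifnar2 held a GAS match 214 bases before its start, Ifngr2 a κB match 74 bases before its start, and Irf7 and Oasl1 held none of the 3 motifs. Isg15 and Ifit3, which were not called, held 3 ISRE matches each. These matches are counts of letters in a window and not sites of binding.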

How the data were processed

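RNA of 3 control and 3 IL-1β samples was sequenced by QuantSeq. The authors aligned the reads with Bowtie2, per the labels, and deposited raw read counts per gene (GRCm38, mm10). Their counting tool, strand setting and handling of reads matching several genes are not given in the sources used here. The table also holds the authors' normalized log2 values, group means, fold changes and p-values, which were not used. Here edgeR 4.0.16 in R 4.3.3 was applied to the counts (filterByExpr, TMM, quasi-likelihood test, Benjamini-Hochberg over 11657 genes), a test checked on simulated data. The standard error is the log2 fold change divided by the square root of F. Depth was 9538741 to 11105408 counts. Groups came from the labels. Alternatives used DESeq2 1.42.0 and limma 3.58.1, Student's test on log2(CPM + 1), other scalings, filters, thresholds and each sample left out. Deviations from group means correlated by 0.075, 0.027 and -0.0050 between samples sharing a replicate number, and the main fit did not treat these as pairs. Such correlations cannot show whether the samples were paired, which the labels do not state. Shared 3′ windows (75 nt of the last 500 nt) were found in GENCODE M21 transcripts. The members and lists were chosen with earlier results of these data known. Full values are given for called genes, receptors, regulators and chemokines. Also chosen were the 6 other pathway genes with the smallest adjusted p in each direction, and Jak1, Jak2 and Tyk2. For these mostly fold change and adjusted p alone are given. Not every gene chosen in this way is reported here. Values of Ifit2, Ifit3, Mx1, Bst2, Rsad2, Isg15, Usp18, Il10rb, Mb21d1, Gbp9, Gbp10 and the sensors were added after they were seen.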

Additional observations from a re-analysis of the deposited data

How the results depend on the processing

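Cxcl10 and Ifnar2 passed an adjusted p of 0.05 under every alternative run, and every called gene kept its direction. With Student's unmoderated test on log2(CPM + 1), whose spread comes from each gene alone, 1 of the 50 genes was higher and 1 lower, the further interferon-induced genes gave 2 higher and 0 lower, and the other signalling genes gave 2 higher and 0 lower. Under that test Ifngr2, Socs1, Cxcl9, Gbp6, Ifit1, Oasl1 and Irf7 had adjusted p of 0.182, 0.231, 0.191, 0.206, 0.231, 0.0769 and 0.068. Socs1 and Cxcl11 were not tested with at least 10 counts in every library. An adjusted p below 0.01 left 4 higher, and a fold change over 1.5 left 2 higher and 1 lower. With each sample left out the 50 genes gave 5 to 11 higher, the 11 without control replicate 1, and 2 to 3 lower. The further interferon-induced genes called lower, 1 as reported, numbered 2 with upper-quartile scaling, 3 with total-count scaling, 2 with no filter, 2 with limma and 0 to 2 with a sample left out (0 without control replicate 3, IL-1β replicate 1 or IL-1β replicate 3). The other signalling genes called lower then numbered 1 to 3 (1 without control replicate 3, IL-1β replicate 2 or IL-1β replicate 3).

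With the replicate number as a block (replicate block), 10 of the 50 genes were higher, Mx1, Zbp1 and Usp18 being added with adjusted p of 0.0291, 0.0274 and 0.0467, and 2 of the further interferon-induced genes were lower. The median log2 fold change of the 50 genes was 0.046 with upper-quartile and 0.021 with total-count scaling. The median of all genes was lower under these scalings too, at -0.030 and -0.055. With a sample left out the median of the 50 genes was 0.052 to 0.094.

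Reversals were in genes not called. Irf2 was at 0.00074 with at least 10 counts in every library, and Xaf1 at -0.0018 with total-count scaling. With upper-quartile and total-count scaling Ddx58 was at -0.024 and -0.050, Oas1a at -0.026 and -0.052 and Bst2 at -0.013 and -0.033. Under both scalings the median of all genes also lay below 0, as given above. Oas1a was at -0.00042 in limma and in Student's test. With a sample left out the ranges crossed 0 for Isg20 (-0.047 to 0.21), Irf2 (-0.019 to 0.012), Irgm2 (-0.21 to 0.024), Ifi35 (-0.041 to 0.043), Ifi47 (-0.030 to 0.18), Ddx58 (-0.026 to 0.046), Oas1a (-0.072 to 0.089), Mx2 (-0.057 to 0.0015), Bst2 (-0.19 to 0.30), Parp9 (-0.015 to 0.12), Parp14 (-0.073 to 0.036) and Dtx3l (-0.066 to 0.027). The cause of these changes was not tested. Depth limits Socs1 and Cxcl11, whose counts fell to 2 and 1 in a library.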
